A study of Mus musculus with 106 samples.

Results

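The genes of bile acid handling formed a set of 10 among the 21647 rows of the count table that held ileum and liver at 10 °C and the 23393 rows of the table that held them at 34 °C. They were picked by name, as Slc10a2, Fabp6, Slc51a, Slc51b, Fgf15, Nr1h4, Nr0b2, Cyp7a1, Cyp8b1 and Abcb11, and all 10 were found in both tables. All mice were wild-type males on standard chow, 8 weeks old at the start, housed 2 per cage without nesting material under 12 hours of light. Cold mice (labelled C57BL/6, age 11 weeks) were first kept at 18 °C and then at 14 °C, each for 5 days, and after that at 10 °C for 2 weeks, and warm mice (labelled C57BL/6J, age 12 weeks) spent 4 weeks at 34 °C. Each set had its own 22 °C controls, from a different breeder, sequencing site and library kit than those of the other set. Every ileum and liver group consisted of 3 libraries, each from tissue of 2 pooled mice, which gave 24 libraries in 8 groups out of 106 libraries in 31 groups. The libraries of the 10 °C set held 16243271 to 25964912 counts and those of the 34 °C set 35843843 to 52402604.

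Bile acids are made from cholesterol in hepatocytes, secreted into bile, and taken back up in the ileum, from where they return to the liver with portal blood. Cyp7a1 is the rate-limiting enzyme of the classic synthesis route and Cyp8b1 the sterol 12-alpha-hydroxylase that directs it to cholic acid. Abcb11 is the bile salt export pump of the hepatocyte. In the ileal enterocyte Slc10a2 is the sodium-dependent importer, Fabp6 the cytosolic bile acid binding protein, and Slc51a and Slc51b the subunits of the basolateral exporter. Nr1h4 encodes FXR, the nuclear receptor that senses bile acids. Its targets include Nr0b2 (the corepressor SHP) and, in the ileum, Fgf15, a hormone that lowers Cyp7a1 in the liver.

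In GRCm38 (mm10) with the GENCODE M21 annotation, Slc10a2 lay at chr8:5083219-5105351, Fabp6 at chr11:43596049-43601540, Slc51a at chr16:32474504-32487879, Slc51b at chr9:65412714-65422955, Nr1h4 at chr10:89454234-89533585, Cyp7a1 at chr4:6265612-6275633, Cyp8b1 at chr9:121914356-121916305 and Abcb11 at chr2:69238282-69342616, all on the minus strand. Fgf15 at chr7:144896531-144900953 and Nr0b2 at chr4:133553376-133556536 lay on the plus strand. Cyp8b1 had 1 exon and Abcb11 31. On the opposite strand Slc51a overlapped Pcyt1a, Slc51b overlapped Rasl12, Fgf15 overlapped Gm26793 and Gm39119, and Abcb11 overlapped Gm13613 and Gm13614. The kit of the 10 °C set is not stated to mark strand, so reads of those partners cannot be told apart from reads of the named gene there.

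Promoters of 8 of the 10 genes matched the RefSeq table on GRCm38.p6, all but Fgf15 and Cyp7a1. The 250 bases before the start were searched on both strands for GGTCA and its reverse complement spaced by 1 base, GGTCANTGACC, the inverted repeat that FXR is known to bind. The 2 looser forms GGNCANTGNCC and GGTNANTNACC were searched too, and every match of the strict form is also a match of both. TATAAA was searched as well, and the looser forms were chosen after the promoters had been read. The strict repeat was in 0 of 8 members and in 0.0335% of 32851 promoters. GGNCANTGNCC was in Abcb11 (0.575% of all promoters), GGTNANTNACC in Fabp6 and Slc51b (0.219%), and TATAAA in Fabp6, Nr0b2 and Cyp8b1 (12.4%). The 5 members with a match are shown 5′ to 3′ on the gene's strand, in lower case with the matched letters in capitals, because each of them also had an unadjusted p up to 0.05 (the p limit used here) in at least 1 comparison with 22 °C. In order, the windows are chr11:43601563-43601812, chr9:65422774-65423023, chr4:133553126-133553375, chr9:121916306-121916555 and chr2:69342617-69342866.
Fabp6: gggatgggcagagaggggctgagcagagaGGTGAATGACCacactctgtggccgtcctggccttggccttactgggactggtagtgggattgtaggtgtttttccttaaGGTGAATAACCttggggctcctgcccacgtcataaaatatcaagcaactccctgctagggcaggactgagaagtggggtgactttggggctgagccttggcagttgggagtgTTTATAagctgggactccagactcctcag
Slc51b: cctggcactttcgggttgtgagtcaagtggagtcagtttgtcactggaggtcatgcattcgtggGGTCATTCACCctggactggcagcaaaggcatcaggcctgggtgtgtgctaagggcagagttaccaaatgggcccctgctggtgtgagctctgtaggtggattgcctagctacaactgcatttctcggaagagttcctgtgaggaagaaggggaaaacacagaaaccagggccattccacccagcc
Nr0b2: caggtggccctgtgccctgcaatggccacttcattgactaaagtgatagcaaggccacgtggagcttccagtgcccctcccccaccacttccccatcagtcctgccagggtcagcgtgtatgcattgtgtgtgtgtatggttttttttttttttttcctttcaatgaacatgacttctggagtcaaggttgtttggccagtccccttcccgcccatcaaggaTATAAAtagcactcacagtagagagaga
Cyp8b1: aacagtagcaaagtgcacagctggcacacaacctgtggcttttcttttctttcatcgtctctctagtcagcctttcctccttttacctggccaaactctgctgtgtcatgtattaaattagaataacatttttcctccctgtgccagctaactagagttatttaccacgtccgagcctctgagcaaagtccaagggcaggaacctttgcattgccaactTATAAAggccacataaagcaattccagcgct
Abcb11: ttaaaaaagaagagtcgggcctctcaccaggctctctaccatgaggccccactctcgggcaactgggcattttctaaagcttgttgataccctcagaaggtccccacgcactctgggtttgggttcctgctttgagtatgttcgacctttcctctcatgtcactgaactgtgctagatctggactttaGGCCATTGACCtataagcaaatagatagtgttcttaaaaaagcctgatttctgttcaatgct
The repeats of Fabp6 began 221 and 141 bases before the RefSeq start, that of Slc51b 186 bases and that of Abcb11 62 bases. The TATAAA matches of Fabp6 (on the reverse strand), Nr0b2 and Cyp8b1 began 29, 28 and 31 bases before it. The Slc51b window overlaps the GENCODE span of that gene, which ends at 65422955, so its distance does not hold for the GENCODE start.

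The 22 °C libraries carried markers of intestine or liver, as labelled. In the ileum the summed level of 7 enterocyte markers was 11898 to 12367 CPM (read counts divided by the library size and multiplied by 1000000, with library sizes scaled by the TMM method within the comparison) in the 10 °C set and 11177 to 14681 CPM in the 34 °C set, and in the liver the sum of 7 hepatocyte markers was 70831 to 78714 and 96280 to 108762 CPM. The segment of gut was not tested. In the ileal 22 °C libraries 8 colon markers summed to 12576 to 15842 CPM in the 10 °C set and 15120 to 16487 CPM in the 34 °C set. The 14 distal small intestine markers summed to 9750 to 10979 CPM and 17351 to 18504 CPM. Levels between genes were compared as mean CPM per kilobase of exon model, scaled across all tissues of a table. In the ileal 22 °C libraries of the 10 °C set Fabp6 stood highest at 6557, followed by Slc51b at 322, Slc10a2 at 241, Slc51a at 169, Nr1h4 at 109 and Fgf15 at 6.36. The 3 libraries of each of these genes did not overlap with those of its neighbour in that order. In the 34 °C set the order was Fabp6 at 16856, Slc51b at 594, Slc51a at 491, Slc10a2 at 96.4, Nr1h4 at 77.2 and Fgf15 at 30.6, and Slc51b (532 to 713) overlapped Slc51a (442 to 539). In the liver Cyp8b1 was highest at 592, then Abcb11 at 427, Nr1h4 at 108, Cyp7a1 at 79.5, Nr0b2 at 59.8 and Slc10a2 at 7.85 CPM per kilobase in the 10 °C set. The ranges of Cyp7a1 (63.7 to 97.5) and Nr0b2 (58.0 to 62.9) lay next to each other without overlap there. In the 34 °C set they were reversed, with Nr0b2 at 67.7 (51.3 to 92.0) above Cyp7a1 at 38.1 (32.8 to 45.0).

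Nr1h4 stood at 109 CPM per kilobase in ileum and 108 in liver of the 10 °C set at 22 °C, while Slc10a2, also present in both, stood far higher in ileum. Without scaling for composition the liver fell to a mean of 140 CPM against 257 CPM in ileum, because the TMM factors raised the liver libraries of that table, so equality between the tissues depends on the scale. Fabp6 and Fgf15 had no count in any of the 6 liver libraries of the 10 °C set, where 3 counts would be 0.135 to 0.185 CPM, a limit that covers counting error only. Cyp7a1 had at most 1 count in an ileal library and Cyp8b1 at most 5. Every one of the 10 genes had its highest mean in ileum or liver among the 8 tissues of that table.

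**Figure D1:**
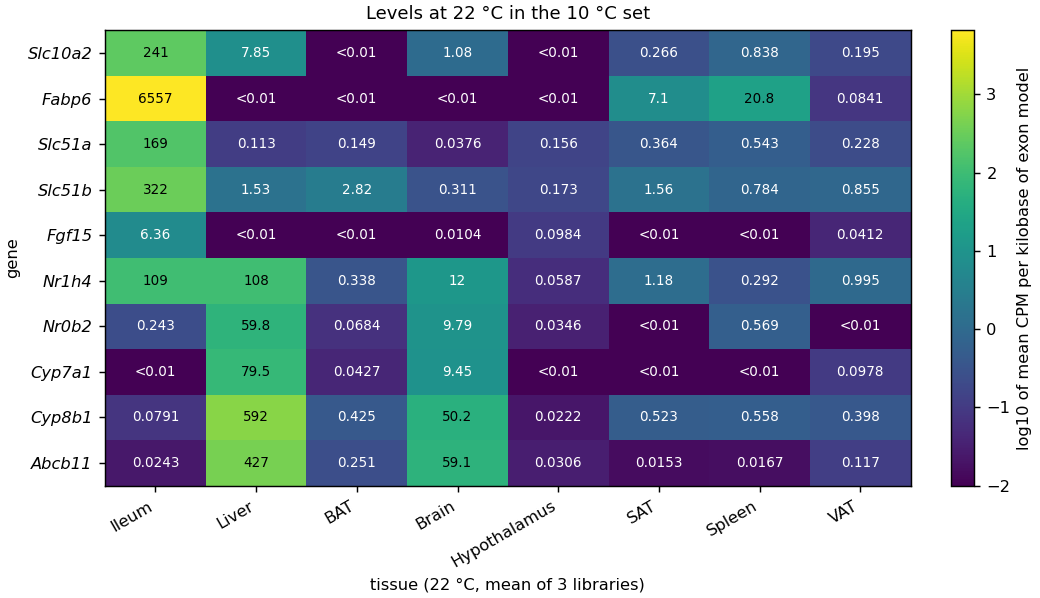
Mean level of each gene at 22 °C in the 8 tissues of the 10 °C set table, as CPM per kilobase of exon model (numbers in the cells, colour on a log10 scale, 3 libraries per tissue). Fabp6 in ileum is the highest cell at 6557, and the brain column holds 1 library with liver genes (Abcb11 at 913 CPM in that library), described with the other tissues.

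Fabp6, the bile acid carrier, was higher in the ileum at 10 °C. Its libraries read 3918, 5872 and 5160 CPM at 10 °C against 2582, 3458 and 3405 CPM at 22 °C, so every cold library lay above every control. The log2 fold change was 0.66 (SE 0.182, a 1.58-fold rise) with an adjusted p of 0.161 in edgeR's quasi-likelihood test. Fabp6 was thereby the 1 member of 6 tested that passed the limits of the study (unadjusted p up to 0.05 and a fold above 1.5), limits that 2.71% of 14081 genes passed, and no member passed at an adjusted p under 0.05 with that fold, where 0.0639% of genes did. By other tools it did pass, with an adjusted p of 0.00175 in DESeq2 and 0.0169 in edgeR's exact test. Without 10 °C library 2 the log2 fold change was 0.52 (adjusted p = 0.215), and without 22 °C library 1 it was 0.54 (adjusted p = 0.312), both past the p limit and below the fold limit.

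Slc10a2, the importer, read 1435, 1190 and 1390 CPM at 10 °C and 994, 995 and 1019 CPM at 22 °C. The groups did not overlap and the 22 °C libraries were almost identical, which gave a log2 fold change of 0.42 (SE 0.0919, adjusted p = 0.114 in edgeR's test) that passed the p limit and stayed below the fold limit. In DESeq2 its adjusted p was 0.00024 and in edgeR's exact test 0.00421. At that p limit alone 17.1% of all genes passed, and 2 of the 6 members tested did, Slc10a2 and Fabp6. The exporter subunits did not pass either limit. Slc51b read 241, 238 and 266 CPM at 10 °C against 225, 216 and 246 CPM (log2 fold change 0.12, SE 0.0764), and Slc51a 461, 655 and 465.7 CPM against 478, 523 and 624 CPM (-0.04, SE 0.161). Nr1h4 stood at 237 CPM ± 20.7 (SD, n = 3) in the cold and 252 CPM ± 5.67 at 22 °C. The importer and the carrier were higher in the cold libraries, and the exporter subunits and FXR overlapped with their controls. Whether the change differed between these genes was not tested.

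Fgf15 varied more between libraries of 1 group than between the groups. It read 2.13, 27.1 and 13.4 CPM at 10 °C and 20.4, 3.9 and 34.4 CPM at 22 °C, from 47 to 902 counts, with a log2 fold change of -0.48 (SE 0.909, adjusted p = 0.81 in edgeR's test). Leaving out 1 library at a time moved it between -1.37 and 0.23. Nr0b2, a target of the same receptor, was under the expression limit (an average log2 CPM above 0) in these ileal libraries, at 0.0452, 2.05 and 0.627 CPM in the cold and 0.350, 0.0988 and 0.381 CPM at 22 °C. Within each of these groups it stood in the same order as Fgf15 over the 3 libraries, from 1 to 34 counts. In the 34 °C set the order was shared at 22 °C but not at 34 °C. There library 2 had the highest Nr0b2 (0.981 CPM) and the lowest Fgf15 (38.0 CPM).

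Some marker lists moved along with Fabp6 and Slc10a2 in these libraries. The enterocyte list summed to 16662 to 17190 CPM at 10 °C against 11898 to 12367 CPM at 22 °C, with 3 of 7 markers at p up to 0.05, all higher, and Fabp2 (the intestinal fatty acid binding protein, log2 fold change 1.30, adjusted p = 0.0488) past the adjusted limit. The 14 distal small intestine markers summed to 11770 to 14673 CPM against 9750 to 10979 CPM. The 13 proximal ones summed to 2010 to 2317 CPM against 1398 to 1779 CPM, so both sums were higher in the cold. At the p limit, which 17.1% of all genes passed, 7 distal markers were higher and 1 lower, and 4 proximal ones higher and 1 lower. In the proximal sum Ada alone read 582 to 797 CPM against 105 to 283 CPM, while Cybrd1 read 5.25 to 6.03 CPM against 6.82 to 7.86 CPM. Of the lists named for other tissues or cells, those of fat and hepatocytes moved too. In the others few genes passed the p limit. These were 1 of 7 smooth muscle and 1 of 8 B and T cell markers, both lower, and 1 of 5 cholangiocyte markers, higher. Of the colon list 0 of 5 genes tested passed it, and of the Kupffer cell list 0 of 1. The 6 fat markers summed to 61.5 to 234 CPM against 28.6 to 82.5 CPM, with 2 of 6 past the study's limits, both higher. The hepatocyte list, of which 4 of 7 genes were tested here, summed to 5053 to 6375 CPM against 3573 to 3678 CPM. It had 1 gene past the limits. In the same libraries the liver members Cyp7a1, Cyp8b1 and Abcb11 had at most 1, 5 and 6 counts. Whether the hepatocyte list reports liver cells in ileum was not tested. Of 13 clock genes 6 passed the limits of the study, among them Nr1d1 (REV-ERB-alpha, log2 fold change -2.06, adjusted p = 0.0488). The part of these in the values of Fabp6 and Slc10a2 was not tested, and in bulk tissue more cells of a type and more RNA per cell cannot be told apart.

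**Figure D2:**
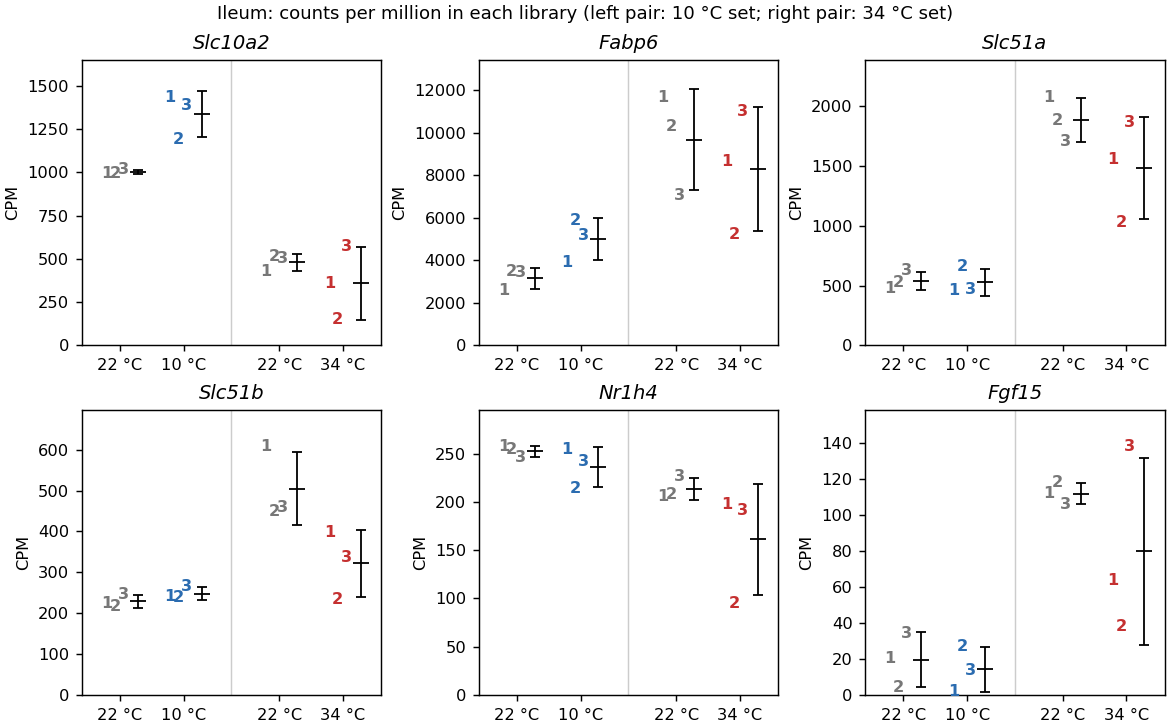
CPM of 6 members in each ileal library (numerals 1 to 3 mark the library) with the mean and SD of each group in black, for the 10 °C set (left pair) and the 34 °C set (right pair), on linear axes from 0. Slc10a2 and Fabp6 at 10 °C lie above all their 22 °C libraries, and 34 °C library 2 is the lowest of its set for all 6 genes.

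In the ileum at 34 °C the exporter subunit Slc51b was lower and passed the limits. Slc51b read 397, 234 and 336 CPM at 34 °C against 607, 449 and 459 CPM at 22 °C, without overlap. Its log2 fold change was -0.65 (SE 0.217, adjusted p = 0.594 in edgeR's test), 1 of 7 members tested, where 2.83% of 13023 genes passed the same limits. That background of 368 genes itself moved with single libraries, to 130 without 34 °C library 2, 151 without 22 °C library 3, 199 without 22 °C library 1, 806 without 22 °C library 2 and 1096 without 34 °C library 1. Its adjusted p was 0.214 in DESeq2 and 0.56 in edgeR's exact test. All 7 log2 fold changes were negative with a median of -0.41, beside a median of 0.01 over all genes tested. None of the others passed the p limit, which 7.76% of all genes passed. Slc51a, the other exporter subunit, read 1557, 1027 and 1866 CPM against 2073, 1875 and 1704 CPM (-0.34, SE 0.223), and Nr1h4 197, 94.7 and 191 CPM against 206, 208 and 226 CPM (-0.40, SE 0.265).

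Library 2 at 34 °C held the low ends. It had the lowest level of 6 of the 7 members among all 6 libraries, with Slc10a2 at 150 CPM against 360 to 572 CPM in the other five, Fabp6 at 5197 CPM and Fgf15 at 38.0 CPM. Library 3 had the highest Slc10a2 (572 CPM) and Fgf15 (138 CPM) of the set, above the 22 °C values of 425 to 512 and 106 to 118 CPM. The proximal small intestine list summed to 12815 CPM in library 2 against 1946 and 4151 CPM in the other 34 °C libraries and 2029 to 2617 CPM at 22 °C, and its distal list to 11506 CPM against 16588 to 18820 CPM. Without library 2 the median over the members was -0.14, the Slc10a2 value -0.04 (SE 0.209) and the Fabp6 value 0.02 (SE 0.254). Slc51b still passed the p limit without it, at a log2 fold change of -0.46 (adjusted p = 0.928) below the fold limit. Without 22 °C library 1 Slc51b passed neither limit (-0.50, adjusted p = 0.715). Without 34 °C library 3, which held the highest warm values of Fgf15 and Slc10a2, Fgf15 (-1.15, adjusted p = 0.769) and Slc10a2 (-0.93, adjusted p = 0.769) passed both limits as well.

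**Figure D3:**
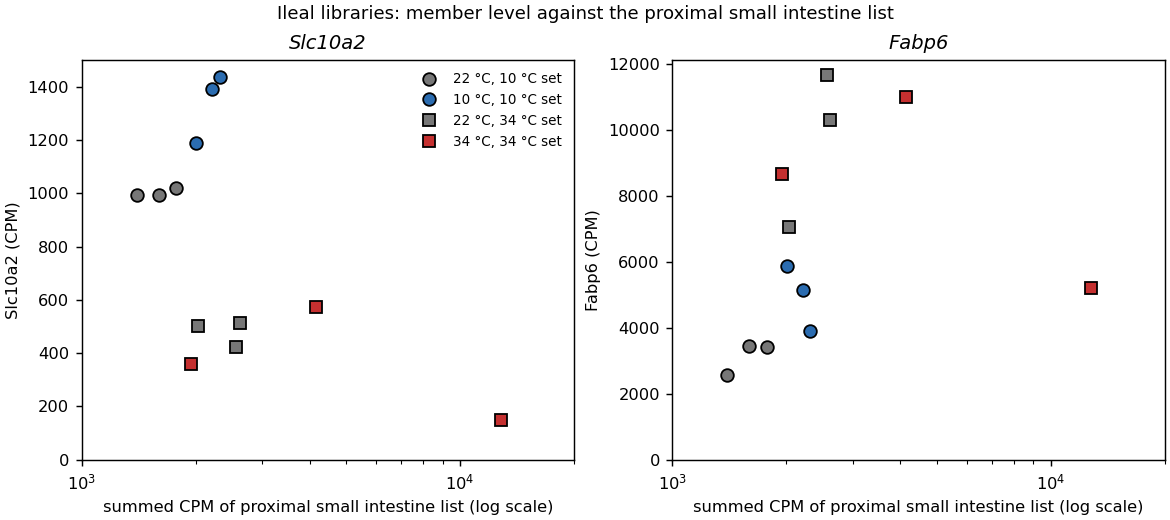
Level of Slc10a2 and Fabp6 (CPM, linear axis from 0) against the summed CPM of 13 proximal small intestine markers (log axis) in the 12 ileal libraries, by temperature and set. The 34 °C library at 12815 CPM on the horizontal axis has the lowest Slc10a2 value (150 CPM), while the other 11 libraries lie between 1398 and 4151 CPM.

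Fgf15 stood at different levels in the 22 °C controls of the sets. Those libraries read 3.9 to 34.4 CPM in the 10 °C set and 106 to 118 CPM in the 34 °C set. Clock genes differed between the controls too. In ileum Nr1d1 read 15.8 to 30.5 CPM in the 10 °C set and 153 to 296 CPM in the 34 °C set, while Cry1 overlapped. In liver the clock gene Arntl read 47.8 to 60.4 against 0.588 to 2.90 CPM, and Dbp 0.964 to 2.05 against 123 to 176 CPM. The part of the clock in the members' levels was not tested. Breeder, age, site and kit all differ between these controls, so the values stand side by side and their difference cannot be assigned. Nr0b2 at 34 °C read 0.727, 0.981 and 0.830 CPM against 0.665, 3.496 and 0.587 CPM, and its log2 fold change of -0.90 (SE 0.713) came from 22 °C library 2.

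In the liver at 10 °C Cyp7a1 and Cyp8b1 were lower and Nr0b2 and Abcb11 higher, each past the p limit and by a fold below 1.5. Cyp7a1 read 94.4, 168 and 115 CPM at 10 °C and 224, 179 and 147 CPM at 22 °C, which overlapped, with a log2 fold change of -0.55 (SE 0.211, adjusted p = 0.218 in edgeR's test). Cyp8b1 read 494, 542 and 432 CPM against 699, 600 and 617 CPM without overlap (-0.38, SE 0.104, adjusted p = 0.128). Nr0b2 read 49.97, 63.3 and 44.4 CPM against 39.2, 36.6 and 36.6 CPM (0.49, SE 0.122, adjusted p = 0.119). Abcb11 read 1384, 1445 and 1334 CPM against 1223, 1181 and 1239 CPM (0.19, SE 0.0778, adjusted p = 0.235). For Cyp8b1, Nr0b2 and Abcb11 the groups did not overlap. The share of all genes whose groups did not overlap was not counted, in liver or in ileum. Such separations therefore stand without a background and add nothing to the p-values.

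Thus 4 of 6 members tested passed the p limit, which 18.6% of 12026 genes passed, and 0 of 6 passed the fold limit as well, which 3.28% of genes did. At an adjusted p under 0.05 none passed in edgeR's quasi-likelihood test, as no gene did with the fold limit, where DESeq2 called 200 genes and edgeR's exact test 201. Without 22 °C library 3 the quasi-likelihood test itself called 274 genes at that limit, and 629 by the study's limits in place of 395. Among the members DESeq2 gave an adjusted p of 0.0198 for Nr0b2 and 0.0152 for Cyp8b1, and the exact test 0.0199 and 0.0435. Cyp7a1 lay close to the fold limit and passed it when scaled by library size alone (-0.61), without 10 °C library 2 (-0.81) or without 22 °C library 3 (-0.69), and Nr0b2 passed it without 10 °C library 3 (0.60). Nr1h4 was at 137 CPM ± 4.40 in the cold and 137 CPM ± 13.1 at 22 °C (SD, n = 3), with a log2 fold change of -0.0030 (SE 0.0839). Slc10a2, which cholangiocytes are known to express, read 25.7, 18.8 and 20.8 CPM against 14.8, 22.9 and 16.5 CPM. The hepatocyte list summed to 95637 to 100886 CPM at 10 °C against 70831 to 78714 CPM at 22 °C. Of its 7 genes 3 passed the p limit, all higher, and 0 passed the fold limit as well. Of 12 clock genes tested 7 passed the p limit, 3 of them with the fold limit. The part of the hepatocyte and clock lists in the liver values was not tested.

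**Figure D4:**
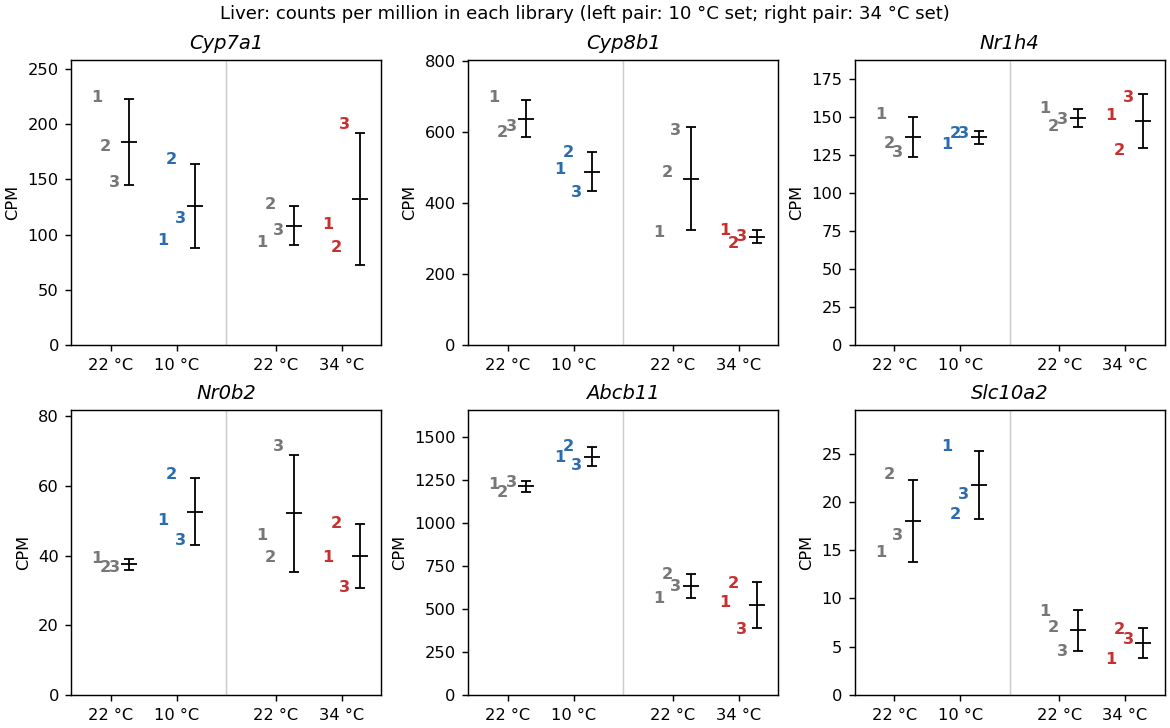
CPM of 6 members in each liver library (numerals 1 to 3 mark the library) with the mean and SD of each group in black, for the 10 °C set (left pair) and the 34 °C set (right pair), on linear axes from 0. At 10 °C all 3 libraries lie above the controls for Nr0b2 and Abcb11 and below them for Cyp8b1, while at 34 °C the groups of every gene overlap.

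Cyp8b1 was the liver gene that passed the limits in warmth. It read 323, 286 and 307 CPM at 34 °C and 318, 486 and 604 CPM at 22 °C, with a log2 fold change of -0.62 (SE 0.198, adjusted p = 0.281 in edgeR's test), 1 of 6 members tested where 3.38% of 11179 genes passed, and no member passed at an adjusted p under 0.05, where 0.385% of genes did. In DESeq2 the adjusted p of Cyp8b1 was 0.0453 and in edgeR's exact test 0.12. The warm libraries lay close together while the controls spread from 318 to 604 CPM, and control library 1 stood within the warm range. Without 22 °C library 3 the value was -0.40 (adjusted p = 0.651), and without 34 °C library 2 it was -0.57 (adjusted p = 0.365), both past the p limit and below the fold limit. Cyp7a1 read 109, 88.1 and 200 CPM against 92.6, 127 and 104 CPM (0.29, SE 0.271, adjusted p = 0.746), and its sign turned to -0.14 without library 3. Nr0b2 read 39.4, 49.1 and 30.9 CPM against 45.8, 39.3 and 71.2 CPM (-0.39, SE 0.232), and Abcb11 540, 649 and 384 CPM against 564, 705 and 632 CPM (-0.27, SE 0.176). With 1 library left out Nr0b2 ran from -0.57 (without 34 °C library 2) to -0.096 (without 22 °C library 3), and Abcb11 from -0.45 (without 34 °C library 2) to -0.095 (without 34 °C library 3). In 34 °C library 3 Cyp7a1 was the highest and Nr0b2 and Abcb11 the lowest of the 6 libraries. The hepatocyte list summed to 134460 to 142773 CPM at 34 °C and 96280 to 108762 CPM at 22 °C. Of its 7 genes only 1 passed the p limit, higher, and 0 passed the fold limit as well, with a median log2 fold change of 0.16. The part of this list in the members' values was not tested.

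**Figure D5:**
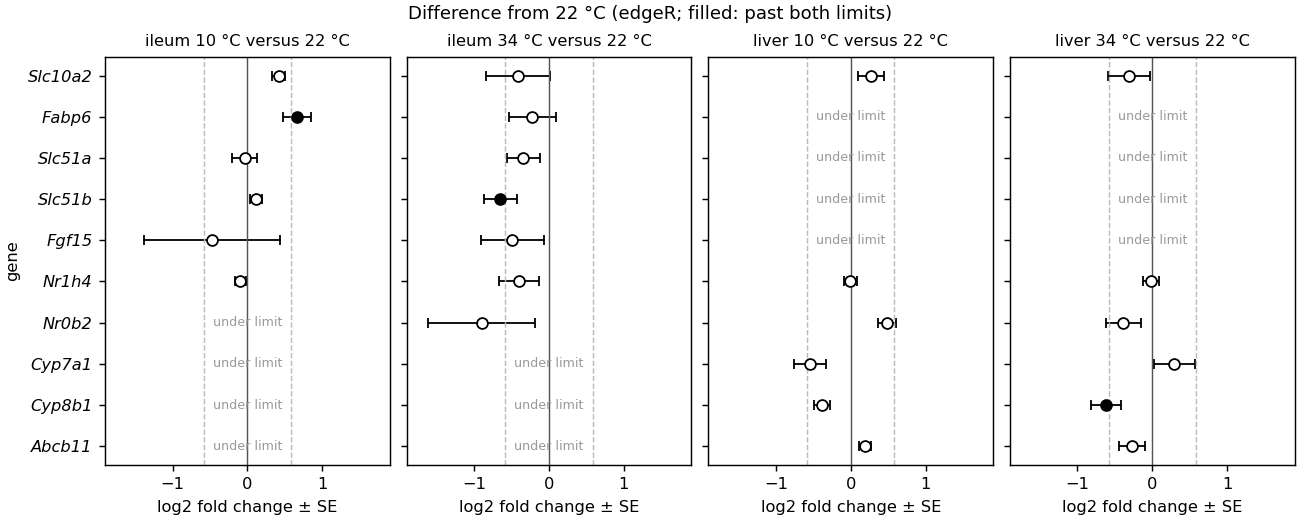
Log2 fold change from 22 °C with its SE for each member in the 4 comparisons, with filled points where p was up to 0.05 and the fold above 1.5 (dashed lines mark the fold limit), and "under limit" where the gene had an average log2 CPM of 0 or less. Fabp6 at 10 °C (0.66) and Slc51b at 34 °C (-0.65) in ileum and Cyp8b1 at 34 °C in liver (-0.62) are the filled points.

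The responses to cold and to warmth were then set against each other, each relative to its own controls. The sets differ in breeder, age, sequencing site, kit and length of exposure as well as in temperature. A difference between their effects therefore cannot be assigned to temperature alone. In the ileum 2 of 6 members differed at an unadjusted p up to 0.05, a limit that 12.3% of all genes passed. For Fabp6 the warm effect minus the cold effect was -0.89 on the log2 scale (SE 0.388, adjusted p = 0.384 in edgeR's test), and for Slc51b it was -0.77 (SE 0.243, adjusted p = 0.263). Slc10a2 had a difference of -0.84 with a wider error (SE 0.472, adjusted p = 0.504). In the liver 2 of 6 differed, where 13.3% of genes did. Nr0b2 had -0.86 (SE 0.295, adjusted p = 0.238) and Abcb11 -0.46 (SE 0.204, adjusted p = 0.361). Their effects were 0.49 and 0.19 in cold and -0.39 and -0.27 in warmth, where neither passed the p limit. Cyp7a1 ran the other way at 0.86 (SE 0.40, adjusted p = 0.38, short of the p limit), and Cyp8b1, lower at both temperatures, had -0.22 (SE 0.248, adjusted p = 0.751). When each of the 12 libraries was left out in turn, Slc51b and Nr0b2 passed the p limit every time. Fabp6 fell short of it in 8 of 12 fits and passed only without 34 °C library 3, its 22 °C control 3, 10 °C library 1 or its 22 °C control 2. Abcb11 fell short in 10 of 12 and passed only without 34 °C library 2 or its 22 °C control 1. Cyp7a1 passed in 5 of 12 fits, without 34 °C library 1 or 2, its 22 °C control 2, 10 °C library 2 or its 22 °C control 3. In 1 fit each, Slc10a2 in ileum passed without 34 °C library 3, Slc10a2 in liver without 22 °C control 3 of the 34 °C set, and Cyp8b1 without control 1 of that set. Only Nr1h4 and Slc10a2 were tested in both tissues at 10 °C, with Nr0b2 added at 34 °C, and 0 of 2 and 0 of 3 differed between ileum and liver at the p limit, which 12% and 9.33% of all genes passed. The smallest adjusted p of these genes was 0.802 at 10 °C and 0.708 at 34 °C in edgeR's test.

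Around the 10 members, 52 further genes of bile acid synthesis, transport and control were examined. In the ileum at 10 °C 1 of 38 tested passed the limits, a share near the 2.71% of all genes. It was the basolateral exporter Abcc3, which fell from 174 to 235 CPM to 118 to 149 CPM (-0.63, adjusted p = 0.102). In the ileum at 34 °C 4 of 37 passed, where 2.83% of all genes did. Gata4 (a factor of the proximal small intestine, 2.94), Nr1i3 (the nuclear receptor CAR, 3.23) and Slc27a2 (an acyl-CoA synthetase, 1.57) were higher and S1pr2 (a receptor for conjugated bile acids, -1.68) lower. The upper end of the 34 °C values of Gata4 (5.61 to 84.5 CPM) lay in library 2, which had the high proximal list, and without that library its log2 fold change was 1.36 and did not pass. With 1 library left out Gata4 passed in 3 of 6 fits, Nr1i3 in 6, Slc27a2 in 4 and S1pr2 in 2.

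In the liver at 10 °C 2 of 47 tested passed, both lower, where 3.28% of all genes passed. Of the 17 synthesis genes tested beside the members, 3 were higher and 2 lower at the p limit alone, which 18.6% of all genes passed. The median log2 fold change of the 17 was 0.06. Prox1, a corepressor of Cyp7a1, read 93.0 to 115 CPM against 141 to 243 CPM (-0.92, adjusted p = 0.0941), and Cyp39a1, an oxysterol 7-alpha-hydroxylase, 14.5 to 23.5 CPM against 25.8 to 31.2 CPM (-0.68, adjusted p = 0.121). In the liver at 34 °C 4 of 47 passed, where 3.38% of all genes did, and 2 of them had an adjusted p under 0.05 with the fold limit in edgeR's quasi-likelihood test, where 0.385% of genes did. Cyp7b1, the oxysterol 7-alpha-hydroxylase of the alternative synthesis route, fell from 323 to 355 CPM to 74.5 to 156 CPM (-1.46, SE 0.232, adjusted p = 0.0464). Cyp46a1, the cholesterol 24-hydroxylase, rose from 2.63 to 3.35 CPM to 6.32 to 10.2 CPM (1.42, SE 0.209, adjusted p = 0.0339). With 1 library left out both passed the study's limits in 6 of 6 fits, while the adjusted p stayed under 0.05 only without 34 °C library 3, and for Cyp7b1 also without 34 °C library 2. It reached 0.196 for Cyp7b1 and 0.18 for Cyp46a1, both without 22 °C library 3. Abcb4, which moves phosphatidylcholine into bile, was lower (-0.61, adjusted p = 0.070) and the basolateral uptake carrier Slco1a4 higher (0.76, adjusted p = 0.138). Of the 17 synthesis genes tested in warm liver, 6 were lower and 2 higher at the p limit, which 11.2% of all genes passed. Cyp7b1 and the 12-alpha-hydroxylase Cyp8b1 were thus both lower in warm liver, while Cyp7a1 was not among the genes that passed.

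Likeness across libraries was described for the hormone and its hepatic target, as Pearson's r of log2 CPM over the 12 libraries of a tissue after each set was centred on its own mean. In the ileum the genes most like Fgf15 among 11881 were Trpm6 (0.851), Slc30a10 (0.846), Grasp (0.839) and Acot4 (0.832). Slc51a stood highest of the members at 0.617, ahead of Slc51b (0.317), Fabp6 (0.288), Slc10a2 (0.248) and Nr1h4 (0.235). In the liver the genes most like Cyp7a1 among 10221 were Ncapd3 (0.951), Fastkd1 (0.905), Rbp4 (0.884) and Ptdss2 (0.877). Nr1h4 (0.575) and Cyp8b1 (0.274) were positive, and Abcb11 (-0.607), Nr0b2 (-0.501) and Slc10a2 (-0.370) negative. All points of a tissue share their 2 sets of controls and exposures, and no p-value belongs to these values.

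Outside ileum and liver the members were near 0, with at least 1 member at 1 CPM or more in 23 of 82 libraries and at 10 CPM or more in 3. The 22 °C brain library 2 of the 10 °C set carried liver genes, with Abcb11 at 913, Cyp8b1 at 293, Cyp7a1 at 118, Nr1h4 at 82.4, Nr0b2 at 32.8 and Slc10a2 at 13.4 CPM. No member exceeded 0.287 CPM in the other 11 brain libraries. Its hepatocyte list summed to 57695 CPM against 503 to 1162 CPM in those. In subcutaneous fat (SAT) at 10 °C library 1 held Fabp6 at 36.2, Slc10a2 at 10.8, Slc51a at 5.77 and Slc51b at 4.27 CPM, with an enterocyte list of 151 CPM against 17.5 to 49.9 CPM in the other five SAT libraries. Spleen library 3 at 22 °C held Fabp6 at 28.6, Slc10a2 at 9.87 and Slc51a at 3.75 CPM, with an enterocyte list of 120 CPM against 11.2 to 21.2 CPM in the others. Visceral fat (VAT) library 3 at 10 °C had a higher enterocyte list than either, 237 CPM, with no count of Fabp6 and Slc10a2 at 0.0628 CPM. VAT held Nr1h4 at 1.07 to 2.48 CPM in its 6 libraries of the 10 °C set, with no other ileal or hepatic member above 2.27 CPM. In brown fat of the 10 °C set the hepatocyte list summed to 58.8 to 111 CPM at 22 °C and 0.234 to 1.06 CPM at 10 °C. Abcb11 read 0.997 to 1.73 CPM and 0.156 to 0.49 CPM there. Hypothalamus library 3 at 10 °C held Abcb11 at 1.81 CPM, with a hepatocyte list of 239 CPM. None of these libraries enters the ileum and liver comparisons.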

How the data were processed

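RNA was sequenced from 11 tissues, and the ileum and liver libraries were analysed here. The authors mapped reads to mm10 with STAR and counted them per gene with HTSeq (the submitters' processing notes give STAR 2.5.3a, HTSeq 0.6p1 and Picard 1.141), and they deposited raw counts per gene with no normalization. The labels' treatment text names the warm protocol for every sample, so temperature was taken from sample titles. Of 21647 Ensembl identifiers 21583 matched a symbol. For the 34 °C set sample titles give no replicate number, so its libraries are named by the numbers in the count table's column names, which tie to a group and not to a single sample.

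The counts were scaled by TMM and fitted in edgeR 4.0.16 (R 4.3.3), with the quasi-likelihood test over all genes with an average log2 CPM above 0 in the comparison, one comparison at a time, unpaired and two-sided. SEs were derived from the fold change and its F. The study's limits (unadjusted p up to 0.05, fold above 1.5) were used beside Benjamini-Hochberg adjusted p-values. Differences between effects were fitted over 12 libraries. The fits were tested on simulated data. Alternatives were edgeR's exact test, DESeq2 1.42.0, other scalings and filters, a replicate block and leaving out each library. With 3 libraries per group only moderate or large changes can pass.

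All 10 genes were named in each comparison. From the wider bile acid list the called genes were named, from marker lists counts, ranges and genes under the adjusted limit, and the 4 genes most like Fgf15 and Cyp7a1. The genes and lists were chosen with earlier results of these data known. Overlaps of genes were taken from GENCODE M21.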

Additional observations from a re-analysis of the deposited data

Results flagged for a closer look

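Effects of cold and warmth differed for 4 members by a test of the difference itself, given here as the warm effect minus the cold effect on the log2 scale. Breeder, age, site, kit and length of exposure also differ between the sets, so their part cannot be told apart from that of temperature. In the ileum the differences were -0.89 for Fabp6 and -0.77 for Slc51b, and in the liver -0.86 for Nr0b2 and -0.46 for Abcb11. At the same unadjusted limit 12.3% of all genes passed in ileum and 13.3% in liver. With 1 of 12 libraries left out Fabp6 fell short of it in 8 fits and Abcb11 in 10, and Abcb11 also with library size as the only scaling. None had an adjusted p under 0.05 in edgeR's test, where the smallest was 0.238.

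Signal of the members at 10 CPM or more appeared in 3 libraries of tissues outside the comparisons. The 22 °C brain library 2 of the 10 °C set held Abcb11 at 913 CPM, Cyp8b1 at 293, Cyp7a1 at 118, Nr1h4 at 82.4, Nr0b2 at 32.8 and Slc10a2 at 13.4 CPM, and the other 11 brain libraries held at most 0.287 CPM of any member. Subcutaneous fat library 1 at 10 °C held Fabp6 at 36.2 and Slc10a2 at 10.8 CPM, and spleen library 3 at 22 °C held Fabp6 at 28.6 CPM. The origin of this signal was not tested.

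In the spinal cord at 22 °C, 1 of 5 libraries stood far from the rest for Abcb11 (3.31 CPM) and Cyp8b1 (1.03 CPM), and its hepatocyte list summed to 349 CPM. Both values came from the same library, and no member exceeded 0.302 CPM in the other libraries of that group. In all, 6 combinations of a member and a 22 °C group with more than 3 libraries were tested. The flags are not independent of each other, so no chance rate is set beside them.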

How the results depend on the processing

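The counts of members past the study's limits (1 of 6 in ileum at 10 °C, 1 of 7 in ileum at 34 °C, 0 of 6 in liver at 10 °C and 1 of 6 in liver at 34 °C) were the same with edgeR's exact test, DESeq2, DESeq2's size factors and both other filters. With library size as the only scaling, liver at 10 °C had 1 (Cyp7a1, -0.61) and the liver difference between warmth and cold 1 in place of 2. With an adjusted p under 0.05 in edgeR's quasi-likelihood test every one of these counts and of the differences between warmth and cold was 0. Without the fold limit, an alternative chosen after seeing the data, 2 members passed in ileum and 4 in liver at 10 °C, and 1 in each at 34 °C. Leaving out each library in turn gave 0 to 1 in ileum at 10 °C, 0 to 3 in ileum at 34 °C, 0 to 1 in liver at 10 °C, 0 to 1 in liver at 34 °C, and 1 to 3 for the difference in each tissue. Adjusted p-values depended on the tool: over all genes with the fold limit, edgeR's quasi-likelihood test, its exact test and DESeq2 called 9, 148 and 147 in ileum at 10 °C, 0, 5 and 18 in ileum at 34 °C, 0, 201 and 200 in liver at 10 °C, and 43, 176 and 182 in liver at 34 °C. By the study's limits 368 genes in ileum and 378 in liver at 34 °C became 667 and 619 with no filter beyond 1 count, and the 368 became 574 in DESeq2. The number of members highest in ileum or liver was 10 of 10 in each scaling tried.

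Of 618 values of single members under all alternatives, 538 kept their sign and their side of the limits, 29 changed sign, 32 lost and 19 gained the call, and 0 of the sign changes touched a called value. Nr1h4 in liver at 10 °C became 0.0030 with no filter beyond 1 count and 0.00085 with the replicate number as a block. With 1 library left out the values that changed sign ran from -1.37 to 0.23 for Fgf15 and from -0.23 to 0.076 for Slc51a in ileum at 10 °C, from -0.49 to 0.024 for Fabp6 in ileum at 34 °C, from -0.064 to 0.075 for Nr1h4 in liver at 10 °C, and from -0.10 to 0.074 for Nr1h4 and from -0.14 to 0.52 for Cyp7a1 in liver at 34 °C. Between warmth and cold they ran from -0.72 to 0.89 for Fgf15 in ileum and from -0.10 to 0.10 for Nr1h4 in liver. Between ileum and liver they ran from -0.071 to 0.26 for Slc10a2 at 10 °C, and at 34 °C from -0.61 to 0.28 for Slc10a2 and from -0.90 to 0.84 for Nr0b2. The cause was not tested.

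The labels of the 10 °C set share replicate numbers. Correlations of same-numbered deviations were 0.415, -0.0787 and 0.419 in ileum and 0.0478, -0.342 and -0.045 in liver, so the numbers were not taken to pair the samples. With the replicate block Fabp6 had 0.66 (SE 0.128) and no call by the study's limits changed. For the 34 °C set the sample titles give no replicate number and the column numbers could not be tied to samples, so they were not used to pair libraries and no paired fit was made there. With 3 libraries a group, each from 2 pooled mice, a member that missed the limits is not shown to be stable, and the limits use an unadjusted p, so members' counts are to be read beside the shares of all genes. In ileum the low counts of Fgf15 and Nr0b2 limit the precision of their values.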
